A study of Mus musculus with 18 samples.

Results

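The transcripts of 6 genes were followed here, 4 NKR-P1 receptors (Klrb1a, Klrb1b, Klrb1c and Klrb1f) and 2 Clec2 ligands (Clec2d and Clec2i), in invariant natural killer T (iNKT) cells from mouse thymus. The genes were chosen by name, as receptors and ligands of a common system. All 6 had counts, as did 15582 genes in all, and 5 of the 6 passed the filter on low counts and were among the 11118 genes tested. The exception was Klrb1b, whose values are given without a test.

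NKR-P1 receptors are C-type lectin-like proteins of natural killer (NK) cells and of some T cells. NKR-P1C, the product of Klrb1c, is an activating receptor and carries the NK1.1 antigen of C57BL/6 mice, by which mature iNKT cells are often recognised, whereas the BALB/c form is not stained by the NK1.1 antibody. NKR-P1B, from Klrb1b, is inhibitory and binds Clr-b, the broadly expressed product of Clec2d. NKR-P1F, from Klrb1f, binds Clr-g, the product of Clec2i. NKR-P1A, from Klrb1a, is close in sequence to NKR-P1C. Receptor and ligand genes lie interspersed in the natural killer gene complex, so a cell can express both sides of a pair.

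The 18 libraries fell into 6 groups of 3: NKT1, NKT2 and NKT17 cells, each sorted from WT and from SKG mice. All mice were on the BALB/c background. The SKG mutation is a base change in Zap70 that weakens signalling of the T cell receptor (TCR), and per the study's methods the WT and SKG mice came from a cross of BALB/cJ with SKG. Ages and sexes are not given in the sources used here, nor is it stated whether a library pooled several mice. The p-values therefore measure the spread between libraries within groups, which the main fit estimated jointly over the 6 groups. All cells bound CD1d tetramer loaded with αGC. NKT1 cells were sorted as CD49a+ with low ICOS, NKT2 cells as ICOS high, CD4 high and Sdc-1-, and NKT17 cells as ICOS high and Sdc-1+. The mutation cannot be read from counts per gene, and Zap70 transcript was found in every library (360 to 852 CPM). The mean of Zap70 was lower in SKG than in WT in NKT1 (477 against 563 CPM), NKT2 (397 against 520) and NKT17 (527 against 789). Its WT and SKG libraries overlapped in NKT1 only. CPM are counts scaled to a common library total with TMM factors. Total counts were 4391029 to 8895917 per library, so 1 count was worth 0.121 to 0.220 CPM.

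Marker lists were summed in each library to check the sorted subsets. Of 6 NKT1 markers such as Tbx21 and Cxcr3, the summed level was 4530 to 5138 CPM in NKT1 libraries and 161 to 403 CPM in the others. The NKT2 list was highest in NKT2 libraries, at 2613 to 2782 CPM in WT and 1820 to 2325 CPM in SKG, but was also at 1474 to 1665 CPM in NKT17 libraries. Of 6 NK cell markers, 5 had counts, and their sum was 670 to 1365 CPM in WT NKT1, 469 to 851 CPM in SKG NKT1 and at most 10.5 CPM in NKT2 and NKT17 libraries. Lists of B cells, myeloid cells, dendritic cells, double-positive thymocytes, thymic epithelium and red cells summed to at most 47.5 CPM in any library. A lower level in a sorted population may stand for fewer cells that express a gene or for less RNA per cell, and these cannot be told apart here.

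The 6 genes span 577 kb of chromosome 6 on build NCBIM37. From lower to higher coordinates, they are Klrb1a (128559245 to 128572952), Klrb1c (128728503 to 128739233), Klrb1b (128763724 to 128776349), Clec2i (128837606 to 128848185), Klrb1f (128995919 to 129007489) and Clec2d (129130633 to 129136552). The first 3 are transcribed from the minus strand and the last 3 from the plus strand. Clec2i overlaps BC035044, a gene on the opposite strand, over 3539 bases with 0 shared exon bases.

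**Figure D1:**
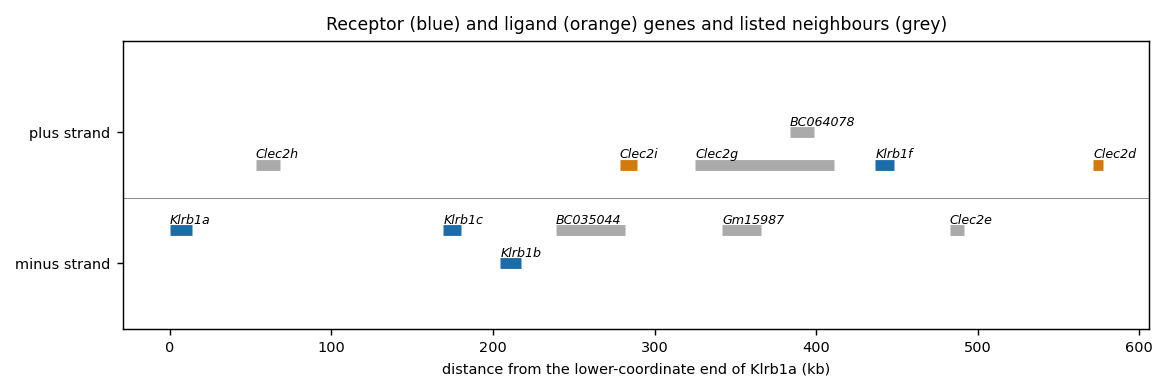
Map of the gene cluster, with the distance from the lower-coordinate end of Klrb1a in kb on the horizontal axis and the plus strand above, the minus strand below the line. Blue bars are the 4 receptor genes, orange bars the 2 ligand genes and grey bars the 6 other listed genes between them, drawn from gene start to gene end in stacked rows where names would collide; the members span 577 kb.

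Because family members resemble each other, reads of 50 bases can be shared between them. The coding sequences of Klrb1a and Klrb1c were identical at 92.5% of 684 aligned bases, against 70.0% of 651 for Klrb1c and Klrb1f, and 86.4% of 609 for the ligands Clec2d and Clec2i. All 1414 windows of 50 exonic bases of Klrb1f occurred in the genome at a single place and had no other match with up to 2 mismatches within the cluster. For Klrb1a, 80.6% of 980 windows occurred at a single place, and 66.3% had no such near match. The corresponding shares were 94.9% and 82.5% for Klrb1b, 95.6% and 82.5% for Klrb1c, 97.6% and 77.5% for Clec2d, and 88.1% and 65.8% for Clec2i. How reads with several alignments were counted is not given in the sources used here, so values of the 5 genes other than Klrb1f may hold, or lack, shared reads.

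The regions at the transcription starts of 3 receptor genes are printed because Klrb1a and Klrb1c, which were alike there, had unlike levels across the subsets, whereas Klrb1f followed Klrb1c. The sequences are those of RefSeq on build GRCm38.p6, from 250 bases before the start to 50 bases from the start on, read 5′ to 3′ along the gene. They lie at chr6:128622885-128623184 (Klrb1a, minus strand), chr6:128788592-128788891 (Klrb1c, minus strand) and chr6:129045651-129045950 (Klrb1f, plus strand). Capitals mark matches on either strand to 4 short motifs, GGTGTG (T-box core), AGGTCA (nuclear receptor core), TGTGGT (Runx core) and AGATAA (core of GATA factors).
Klrb1a: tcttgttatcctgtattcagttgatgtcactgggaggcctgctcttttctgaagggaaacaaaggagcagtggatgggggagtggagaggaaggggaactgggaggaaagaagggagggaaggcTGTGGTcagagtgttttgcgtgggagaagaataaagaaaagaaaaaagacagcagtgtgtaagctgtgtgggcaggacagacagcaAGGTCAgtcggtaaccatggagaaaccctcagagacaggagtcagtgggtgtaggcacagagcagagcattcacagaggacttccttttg
Klrb1c: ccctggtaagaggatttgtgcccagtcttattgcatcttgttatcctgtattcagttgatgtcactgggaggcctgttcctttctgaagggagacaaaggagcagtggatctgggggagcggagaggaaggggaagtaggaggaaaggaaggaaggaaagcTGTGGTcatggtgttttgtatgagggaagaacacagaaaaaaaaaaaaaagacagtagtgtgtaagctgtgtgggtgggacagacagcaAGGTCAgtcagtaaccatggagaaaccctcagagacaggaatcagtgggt
Klrb1f: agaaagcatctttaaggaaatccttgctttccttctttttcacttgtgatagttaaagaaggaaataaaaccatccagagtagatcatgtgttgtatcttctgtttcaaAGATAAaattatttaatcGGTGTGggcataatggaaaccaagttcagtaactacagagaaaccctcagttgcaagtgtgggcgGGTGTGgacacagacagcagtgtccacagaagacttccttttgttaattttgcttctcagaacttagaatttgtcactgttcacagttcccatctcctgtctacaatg
The windows of Klrb1a and Klrb1c were identical at 90.8% of 260 aligned bases, and those of Klrb1c and Klrb1f at 63.2% of 155. Klrb1a held the Runx core at position -126 and the nuclear receptor core at -40, counted from the start site. Klrb1c held the same motifs at -89 and 1. Klrb1f held neither of these but had the T-box core at -123 and -58 and the GATA core at -141. Of 27025 promoter windows of this length, 19.0% held the T-box core, 16.0% the nuclear receptor core, 16.9% the Runx core and 11.4% the GATA core, so each is common, and a match is a description of letters only. No 2 of these motifs overlapped in the 3 windows.

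The levels of the receptors were examined first. Klrb1f had the highest mean level per exon length among the 4 receptors in every group except WT NKT2. Its counts were 690, 364 and 423 in WT NKT1 (83.3, 69.5 and 74.9 CPM), 302, 407 and 542 in WT NKT17 (59.0, 70.8 and 74.4 CPM), and 12, 32 and 26 in WT NKT2 (2.45, 5.59 and 4.20 CPM). In SKG mice they were 97, 104 and 170 in NKT1 (18.0, 21.7 and 29.5 CPM), 360, 390 and 299 in NKT17 (51.0, 68.0 and 56.1 CPM), and 17, 57 and 53 in NKT2 (3.74, 11.2 and 8.51 CPM). All NKT2 libraries lay below all others. The SKG NKT1 libraries lay between the NKT2 libraries and those of the other 3 groups (51.0 to 83.3 CPM). Of these, WT NKT17 overlapped both WT NKT1 and SKG NKT17, which did not overlap each other.

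Klrb1c was likewise present in NKT1 and NKT17 cells and nearly absent from NKT2 cells. Its counts in WT mice were 372, 221 and 258 in NKT1 (44.9, 42.2 and 45.7 CPM), 222, 196 and 287 in NKT17 (43.3, 34.1 and 39.4 CPM), and 13, 19 and 3 in NKT2 (2.66, 3.32 and 0.485 CPM). In SKG mice they were 168, 75 and 197 in NKT1 (31.2, 15.6 and 34.1 CPM), 208, 136 and 126 in NKT17 (29.5, 23.7 and 23.6 CPM), and 4, 1 and 1 in NKT2 (0.881, 0.196 and 0.161 CPM). In order of mean level, WT NKT1, WT NKT17, SKG NKT1 and SKG NKT17 each overlapped the next, and all 12 of these libraries lay above both NKT2 groups, which overlapped each other.

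Klrb1a had a different order. It was highest in WT NKT2, at 47, 67 and 37 counts (9.61, 11.7 and 5.98 CPM), and lowest in SKG NKT2, at 6, 0 and 9 counts (1.32, 0 and 1.45 CPM). The counts were 33, 28 and 32 in WT NKT1 (3.98, 5.35 and 5.67 CPM) and 31, 23 and 46 in WT NKT17 (6.05, 4.00 and 6.31 CPM). They were 22, 12 and 5 in SKG NKT1 (4.09, 2.50 and 0.866 CPM) and 21, 18 and 17 in SKG NKT17 (2.97, 3.14 and 3.19 CPM). The 3 WT groups had the highest means, and in that order the only neighbours without overlap were WT NKT1 and SKG NKT17.

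Klrb1b, the inhibitory receptor, was at the limit of detection. WT NKT1 held 8, 9 and 11 counts (0.966, 1.72 and 1.95 CPM), WT NKT17 held 2, 4 and 7, and WT NKT2 held 2, 1 and 0. In SKG mice the counts were 3, 0 and 6 in NKT1, 1, 5 and 3 in NKT17, and 0 in each NKT2 library. Summed over 3 libraries and scaled for depth, WT NKT1 had 2.59 times the level of SKG NKT1 (28 against 9 counts, 95% exact binomial interval 1.19 to 6.24) and 8.18 times that of WT NKT2 (28 against 3, interval 2.53 to 42.1). SKG NKT1 was at least 2.99-fold higher and SKG NKT17 at least 2.63-fold higher than SKG NKT2, taking a floor of 3 counts over the 3 SKG NKT2 libraries. These intervals and floors cover counting error only and not the spread between libraries.

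Per exon length, the receptor transcripts differed in makeup between the subsets. The 4 receptors summed to 64.0 ± 3.83 CPM per kb in WT NKT1 and 57.6 ± 4.21 in WT NKT17 (SD, n = 3), with Klrb1f taking 67.9% to 72.3% and 63.8% to 73.5% of the sum in single libraries. In WT NKT2 the sum was 10.3 ± 3.18 CPM per kb, and Klrb1a took 64.1% to 75.0% of it. In SKG NKT2 the sum was 5.43 ± 1.66 CPM per kb, of which Klrb1a took 0% to 29.4% and Klrb1f 62.2% to 99.0%. SKG NKT1 had 24.8 ± 5.00 CPM per kb, with Klrb1f at 43.0% to 63.7% and Klrb1c at 26.5% to 42.9%, and SKG NKT17 had 45.5 ± 4.56 CPM per kb, with Klrb1f at 70.7% to 78.6%.

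**Figure D2:**
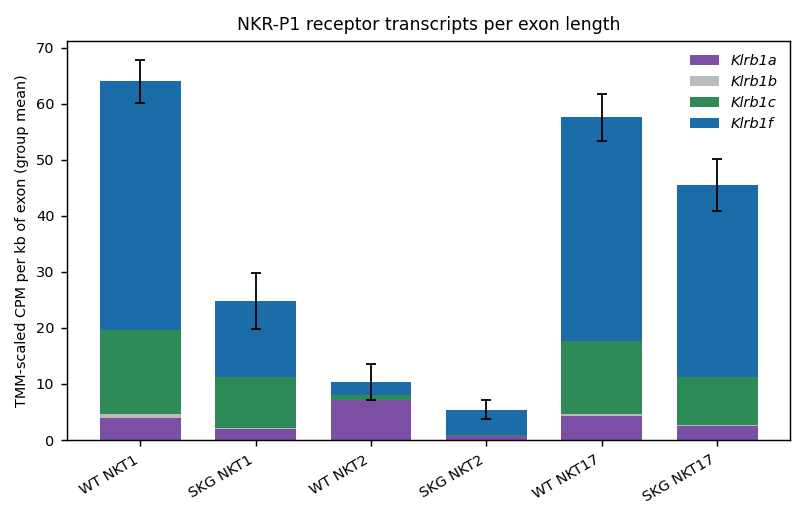
Stacked bars of the 4 receptor transcripts in each group, in TMM-scaled CPM per kb of exon (mean of 3 libraries), with the SD of the sum as error bars. WT NKT1 and WT NKT17 reach 64.0 and 57.6 CPM per kb, mostly Klrb1f, whereas WT NKT2 reaches 10.3, mostly Klrb1a.

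The ligands were more even. Clec2d, which encodes the ligand Clr-b, was at 15.3, 24.3 and 33.8 CPM in WT NKT1, 6.34, 12.4 and 11.5 in WT NKT2, and 8.00, 18.3 and 9.88 in WT NKT17. In SKG mice it was at 15.0, 26.2 and 26.5 CPM in NKT1, 19.6, 22.3 and 14.5 in NKT2, and 20.0, 32.6 and 22.1 in NKT17. Each group overlapped the next in order of mean level, from SKG NKT17 (24.9 ± 6.77 CPM) down to WT NKT2 (10.1 ± 3.27 CPM), n = 3 each. Among the WT groups NKT1 had the highest mean, and among the SKG groups all libraries lay within 14.5 to 32.6 CPM.

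Clec2i, which encodes the ligand Clr-g of NKR-P1F, was highest in NKT1 cells of both genotypes. Its levels were 10.6, 11.6 and 15.4 CPM in WT NKT1 and 11.3, 7.50 and 10.2 in SKG NKT1. The other groups were lower, at 4.91, 3.15 and 4.85 CPM in WT NKT2, 3.90, 2.61 and 5.49 in WT NKT17, 7.05, 2.94 and 4.66 in SKG NKT2, and 6.09, 2.79 and 6.38 in SKG NKT17. All 6 NKT1 libraries lay above the 12 others.

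**Figure D3:**
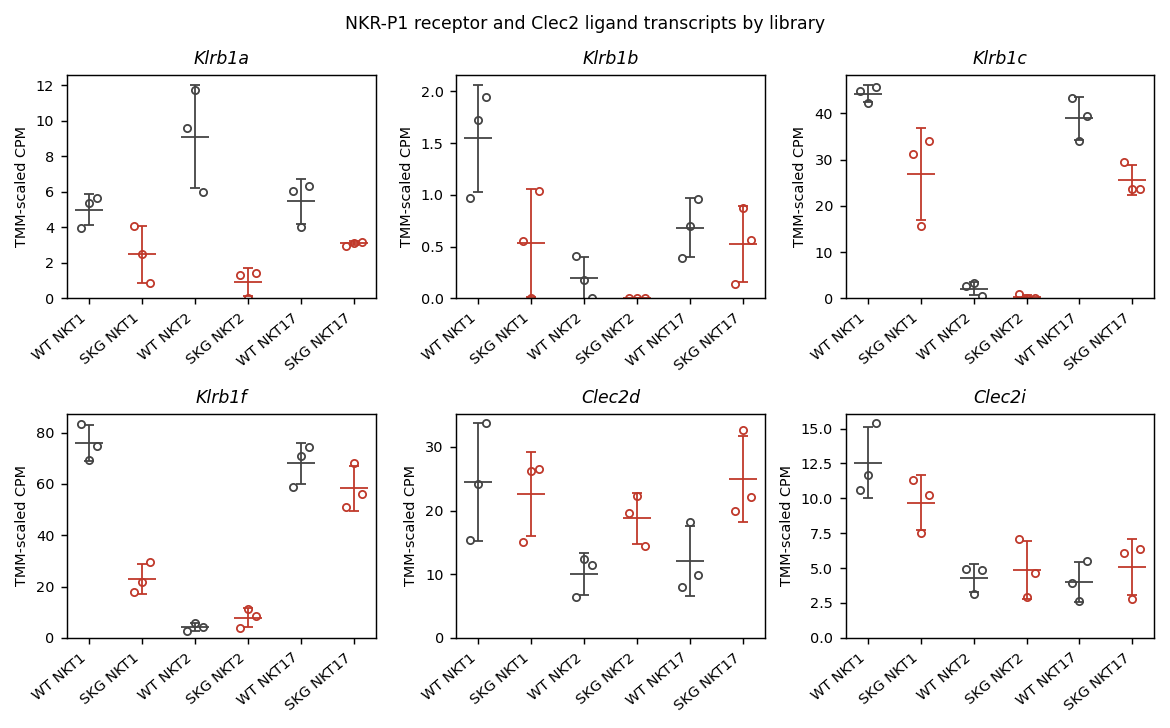
Level of each gene in every library, in TMM-scaled CPM on a linear axis from 0, with a panel for each gene and the 6 groups along the horizontal axis. Circles are libraries (dark grey WT, red SKG), and bars are mean ± SD of 3; the SKG NKT1 libraries of Klrb1f (18.0 to 29.5 CPM) lie below all WT NKT1 libraries (69.5 to 83.3 CPM).

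Subsets were compared within WT mice to ask which of these genes marked a subset. A gene was called where edgeR's quasi-likelihood test gave an adjusted p under 0.1 over all tested genes and a fold change of at least 1.5. Of the 5 tested members, 4 were called between NKT1 and NKT2, each with the higher level in NKT1, against 27.5% of all tested genes. Klrb1c was 4.38 ± 0.41 log2 units higher (SE, edgeR adjusted p 1.78e-08) and Klrb1f 4.19 ± 0.31 (edgeR adjusted p 3.66e-10). Clec2i was 1.54 ± 0.42 log2 units higher (edgeR adjusted p 0.00640) and Clec2d 1.26 ± 0.35 (edgeR adjusted p 0.00825). Klrb1a had a log2 difference of -0.87 ± 0.56 and was not called (95% interval -2.03 to 0.29), although its NKT1 and NKT2 libraries did not overlap. Libraries of the 2 groups did not overlap for 41.6% of tested genes.

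In WT NKT17 cells, the receptors Klrb1c and Klrb1f were also high, whereas the ligand levels were closer to those of NKT2. Between NKT17 and NKT2, 2 members were called, both higher in NKT17, against 20.0% of tested genes: Klrb1c by 4.19 ± 0.41 log2 units (edgeR adjusted p 4.97e-08) and Klrb1f by 4.04 ± 0.31 (edgeR adjusted p 8.45e-10). Between NKT1 and NKT17, 2 members were called, both ligands and both higher in NKT1, against 24.7% of tested genes. Clec2i was higher by 1.63 ± 0.42 log2 units (edgeR adjusted p 0.00435). Clec2d was higher by 1.01 ± 0.35 (edgeR adjusted p 0.0326), with overlapping libraries, and the call was lost without WT NKT17 replicate 1 (adjusted p 0.162), WT NKT17 replicate 3 (0.126) or WT NKT1 replicate 3 (0.175). For the receptors the NKT1 to NKT17 differences had 95% intervals of -0.47 to 0.84 (Klrb1c), -0.35 to 0.67 (Klrb1f) and -1.30 to 1.04 (Klrb1a) log2 units, so Klrb1c and Klrb1f differed by less than 2-fold at this precision. Libraries did not overlap for 34.1% of tested genes between NKT1 and NKT17 and for 37.2% between NKT17 and NKT2.

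In SKG mice the order of Klrb1f changed. NKT1 cells had 1.55 ± 0.28 log2 units more Klrb1f than NKT2 cells (edgeR adjusted p 0.000289) and 1.34 ± 0.26 less than NKT17 cells (log2 fold change -1.34, edgeR adjusted p 0.000354), and NKT17 exceeded NKT2 by 2.88 ± 0.28 (edgeR adjusted p 6.80e-08). Klrb1c again exceeded its level in NKT2, by 6.07 ± 0.53 log2 units in NKT1 (edgeR adjusted p 1.03e-08) and by 5.99 ± 0.53 in NKT17 (edgeR adjusted p 1.55e-08). These fitted differences rest on 6 counts in SKG NKT2, and the ratios of summed counts were 73.0 (95% exact binomial interval 33.3 to 200) and 68.6 (interval 31.3 to 188). Klrb1a was called higher in SKG NKT17 than in SKG NKT2, by 1.71 ± 0.67 (edgeR adjusted p 0.0753), and the call was lost without SKG NKT17 replicates 1, 2 or 3 (adjusted p 0.125, 0.124 and 0.141) or SKG NKT2 replicate 2 (0.232).

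The ligands were not called between SKG subsets. Clec2i was 0.99 ± 0.42 log2 units higher in NKT1 than in NKT2 (edgeR adjusted p 0.101) and 0.93 ± 0.41 higher than in NKT17 (edgeR adjusted p 0.106), with no overlap of libraries in either. It was called in both under DESeq2 (adjusted p 0.0918 and 0.0969). In all, 2 members were called between NKT1 and NKT2 in SKG (18.7% of tested genes), 1 between NKT1 and NKT17 (22.8%) and 3 between NKT17 and NKT2 (18.8%). Non-overlapping libraries were found for 38.9%, 42.6% and 40.3% of tested genes in these comparisons.

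**Figure D4:**
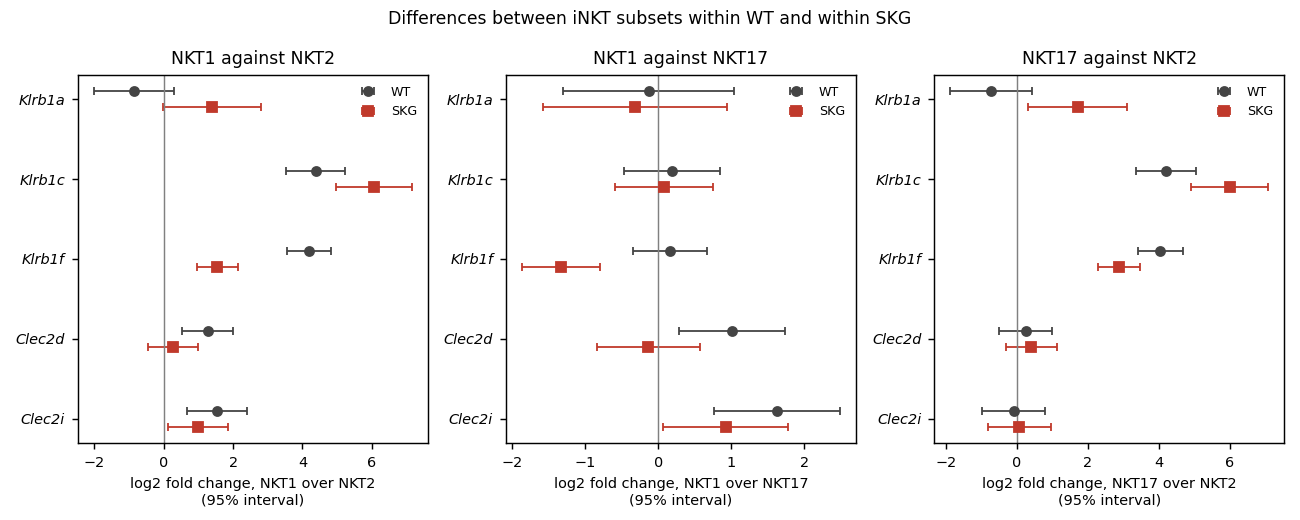
Log2 fold change of the 5 tested members between subsets, with WT as grey circles and SKG as red squares and 95% intervals from the edgeR fit as bars; the vertical line is no difference. In NKT1 over NKT17, Klrb1f moves from 0.16 in WT to -1.34 in SKG, and in NKT1 over NKT2 from 4.19 to 1.55.

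The effect of the SKG mutation was then examined in each subset. In NKT1 cells, 1 of 5 tested members was called, against 3.27% of tested genes, and it was Klrb1f. Its level fell from 75.9 ± 6.95 CPM in WT to 23.0 ± 5.84 CPM in SKG (SD, n = 3), a log2 difference of -1.72 ± 0.26 (SE; adjusted p 0.000338 by edgeR; 95% interval -2.25 to -1.18), or 3.29-fold lower. No SKG library reached the lowest WT library, and such a separation of genotypes was found for 16.3% of tested genes. The call held with each library left out in turn. Klrb1c was not called (log2 difference -0.71 ± 0.32, adjusted p 0.321 by edgeR), though its SKG libraries (15.6 to 34.1 CPM) lay below the WT libraries (42.2 to 45.7 CPM). Klrb1a (-1.003 ± 0.596), Clec2i (-0.37 ± 0.40) and Clec2d (-0.11 ± 0.34) were not called either, and their libraries overlapped.

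Markers of NK cells moved in the same direction as Klrb1f in NKT1 cells. Each of the 5 NK markers with counts had a lower mean in SKG NKT1 than in WT NKT1, and the summed levels overlapped (469 to 851 against 670 to 1365 CPM). Ncr1 was at 97.8 to 189 CPM in WT and 24.9 to 40.9 CPM in SKG, Gzma at 550 to 1145 and 419 to 818 CPM, and Eomes at 1.06 to 4.23 and 0 to 0.866 CPM. Klra8 had no count in any library. Per the paper, WT iNKT cells themselves express NKp46, the product of Ncr1, with low Ncr1 transcription in both strains. In WT NKT17 cells, where Klrb1f was at 59.0 to 74.4 CPM and Klrb1c at 34.1 to 43.3 CPM, the NK list summed to 0.696 to 4.10 CPM and Ncr1 was at 0 to 0.137 CPM. Whether the NK marker transcripts of the NKT1 libraries came from NKT1 cells or from NK cells was not tested. Their part in the Klrb1f difference in NKT1 was not tested either.

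In NKT2 cells, 3 of 5 tested members were called, against 7.95% of tested genes, 2 lower and 1 higher. Klrb1a fell from 9.10 ± 2.90 CPM in WT to 0.922 ± 0.80 CPM in SKG, a log2 difference of -3.25 ± 0.66 (adjusted p 0.00209 by edgeR). Its summed counts were 151 in WT and 15 in SKG, a ratio of 9.51 (95% exact binomial interval 5.59 to 17.4), and its libraries did not overlap, as for 30.1% of tested genes. The call held without any library. Klrb1c fell from 2.15 ± 1.48 to 0.412 ± 0.41 CPM, a log2 difference of -2.40 ± 0.68 (adjusted p 0.0288 by edgeR). This rested on 35 counts in WT against 6 in SKG (ratio 5.51, interval 2.29 to 16.0), the libraries overlapped, and the call was lost without WT NKT2 replicate 2 (adjusted p 0.175), SKG NKT2 replicate 2 (0.123) or SKG NKT2 replicate 3 (0.154).

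Klrb1f rose in SKG NKT2 cells, from 4.08 ± 1.57 to 7.80 ± 3.76 CPM, by 0.93 ± 0.33 log2 units (adjusted p 0.0870 by edgeR), and the libraries overlapped. The call was lost without WT NKT2 replicate 1 (adjusted p 0.269), WT NKT2 replicate 3 (0.186), SKG NKT2 replicate 2 (0.390) or SKG NKT2 replicate 3 (0.234). It was lost as well when only the 6 NKT2 libraries were fitted (adjusted p 0.208). Sample titles share a token between some WT and SKG libraries, whose meaning the labels do not give. Within token 7_10 Klrb1f was lower in SKG NKT2 than in WT NKT2 (17 against 32 counts, log2 difference -0.54), and within 7_11 it was higher (57 against 26 counts, 1.34). With the token as a block in the fit, the Klrb1f call was lost (0.77, edgeR adjusted p 0.179). Clec2d was higher in SKG NKT2 by 0.89 ± 0.36 log2 units without overlap of libraries and was not called (edgeR adjusted p 0.143), but was called when only the 6 NKT2 libraries were fitted (adjusted p 0.0637), and Clec2i differed by 0.18 ± 0.43.

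Marker lists also moved between the genotypes in NKT2 cells. The summed NKT2 list was lower in SKG, with no overlap (1820 to 2325 against 2613 to 2782 CPM). Icos was at 1070 to 1130 CPM in WT and 665 to 861 CPM in SKG, and Cd4 at 362 to 396 and 199 to 238 CPM, both surface proteins used in the sort. Gata3 was also lower without overlap (249 to 299 and 162 to 184 CPM), whereas Zbtb16, Il4 and Ccr4 overlapped between the genotypes. The NK list was at 8.73 to 10.5 CPM in WT and 4.31 to 5.51 CPM in SKG. Most of it was Fcgr3 (5.93 to 7.92 and 3.92 to 4.18 CPM), and Ncr1 was at 0 in both. The double-positive thymocyte list was at 1.64 to 2.27 and 4.18 to 5.62 CPM, mostly Cd8b1 (1.05 to 1.43 and 2.86 to 4.18 CPM), with Rag1 at 0 in both. The NKT1 list was at 293 to 403 CPM in WT and 208 to 297 CPM in SKG, with overlap. Among its genes Il2rb alone did not overlap (208 to 248 and 140 to 163 CPM), and Ccl5 alone had a higher mean in SKG (0.220 and 1.52 CPM). The part of these lists in the differences of Klrb1a, Klrb1c and Klrb1f in NKT2 cells was not tested.

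In NKT17 cells, 1 of 5 tested members was called, against 8.37% of tested genes. Clec2d rose from 12.0 ± 5.46 CPM in WT to 24.9 ± 6.77 CPM in SKG, a log2 difference of 1.05 ± 0.35 (adjusted p 0.0660 by edgeR), with no overlap, as for 26.9% of tested genes. The highest WT library (18.3 CPM) and the lowest SKG library (20.0 CPM) were close, and the call was lost without WT NKT17 replicate 1 (adjusted p 0.262), WT NKT17 replicate 3 (0.191), SKG NKT17 replicate 2 (0.235) or SKG NKT17 replicate 3 (0.112). Within token 7_10 Clec2d was at 18.3 CPM in WT and 20.0 CPM in SKG (log2 difference 0.13), and within 7_11 at 9.88 and 32.6 CPM (1.69). With the token as a block in the fit, the call was lost as well (0.81, edgeR adjusted p 0.133). Klrb1c was lower by 0.60 ± 0.32 log2 units (log2 fold change -0.60, edgeR adjusted p 0.291) and Klrb1a by 0.81 ± 0.58 (log2 fold change -0.81, edgeR adjusted p 0.463), neither called though neither overlapped between genotypes. Klrb1f differed by -0.22 ± 0.25 log2 units with overlapping libraries, and the 95% interval of -0.73 to 0.29 leaves a fall of the size seen in NKT1 outside it. Clec2i differed by 0.34 ± 0.42.

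Lists of other cell types moved with Clec2d in NKT17 cells. The B cell list summed to 8.10 to 11.5 CPM in WT NKT17 and 25.3 to 40.9 CPM in SKG NKT17. Nearly all of this was Cd79b (7.55 to 10.2 and 24.6 to 39.98 CPM), while Ms4a1 was at most 0.195 CPM and Cd79a at most 1.22 CPM. The double-positive thymocyte list summed to 5.27 to 12.5 CPM in WT and 14.3 to 47.5 CPM in SKG, mostly Cd8b1 (1.76 to 11.8 and 12.4 to 36.8 CPM), with Rag1, Rag2 and Dntt at 0 in every NKT17 library. In the other direction, the NKT1 list was at 283 to 324 CPM in WT and 161 to 218 CPM in SKG. Nearly all of this was Il2rb (278 to 321 and 155 to 205 CPM). Of the other NKT1 markers, Tbx21, Cxcr3 and Ccl5 had higher means in SKG, and Ifng and Itga1 lower ones. None of them exceeded 9.63 CPM in these libraries. The thymic epithelium list was at 9.04 to 18.0 and 3.49 to 7.88 CPM. It was mostly Epcam (7.65 to 16.6 and 2.09 to 5.26 CPM), while Psmb11 had means of 1.88 and 1.86 CPM. None of these 4 sums overlapped between the genotypes, and their part in the Clec2d difference was not tested.

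**Figure D5:**
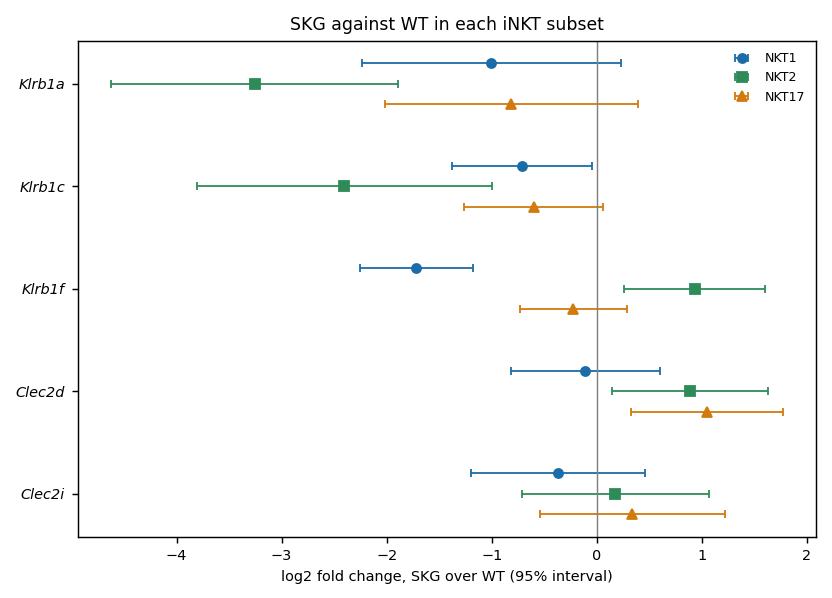
Log2 fold change of SKG over WT for the 5 tested members in NKT1 (blue circles), NKT2 (green squares) and NKT17 cells (orange triangles), with 95% intervals from the edgeR fit; the vertical line is no difference. Klrb1f lies at -1.72 in NKT1, 0.93 in NKT2 and -0.22 in NKT17, and Klrb1a and Klrb1c lie below 0 in all subsets.

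Whether the SKG effect differed between subsets was tested directly, by the difference of the log2 fold changes. For Klrb1f the effect in NKT2 exceeded that in NKT1 by 2.65 ± 0.41 log2 units (SE, edgeR adjusted p 0.000473), and that in NKT17 exceeded that in NKT1 by 1.495 ± 0.36 (edgeR adjusted p 0.0231). Klrb1f was the called member of 5 in each of these comparisons, against 3.87% and 4.17% of tested genes. Both calls held with each library left out. The difference between NKT17 and NKT2 was -1.15 ± 0.41 (edgeR adjusted p 0.230), and no member was called there, against 2.19% of tested genes. At an unadjusted p under 0.05, 3 members passed in that comparison, and DESeq2 called 1, Klrb1a (2.47, adjusted p 0.0920). For Klrb1a the effect in NKT2 was below that in NKT1 by 2.25 ± 0.89 log2 units (difference -2.25, edgeR adjusted p 0.227), and for Klrb1c by 1.69 ± 0.76 (difference -1.69, edgeR adjusted p 0.314), so these falls were not shown to be particular to NKT2 cells. The 2 comparisons that contain NKT1 share its 6 libraries.

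Other genes of the 2 families were then examined. Of 13 family genes listed beside the members, 4 had counts and 2 were tested. Clec2g, a further Clec2 gene, was at 15.2 ± 4.49 CPM in WT NKT17, 2.28 ± 0.742 in WT NKT1 and 0.731 ± 0.259 in WT NKT2 (NKT1 over NKT17, log2 fold change -2.73, edgeR adjusted p 2.51e-05). It did not pass between SKG and WT in any subset. Gm15987, a noncoding gene on the opposite strand within the span of Clec2g, was at 69.3 ± 8.66 CPM in WT NKT17 and at most 0.409 CPM in WT NKT1 and WT NKT2 libraries. Whether counting used strand is not given, so counts of these 2 genes may hold, or lack, reads that overlap both. BC064078, a noncoding gene that lies within the span of Clec2g on the same strand, was at 34.0, 56.5 and 43.8 CPM in WT NKT17 and 97.5, 66.6 and 86.3 CPM in SKG NKT17 (log2 difference 0.90 ± 0.28, adjusted p 0.0461 by edgeR). Counts of BC064078 and Clec2g may likewise hold, or lack, reads that overlap both, whatever the strand setting. Cd69, an early activation antigen whose gene belongs to the same lectin group, was at 229 ± 30.3 CPM in WT NKT1, 67.6 ± 26.8 in WT NKT17 and 20.2 ± 1.31 in WT NKT2, and was likewise not called between SKG and WT. Clec2h had at most 0.349 CPM and Clec2l a single count.

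The 9 genes listed as possible signalling partners of NKR-P1 receptors were all tested. Their coupling to these receptors was not examined. Between SKG and WT, edgeR called 1 in NKT1, 0 in NKT2 and 2 in NKT17, against 3.27%, 7.95% and 8.37% of tested genes. Before adjustment, 3, 2 and 3 partners had a p under 0.05. Zap70 had a lower mean in SKG in each subset and was not called in any. In NKT2 it fell short of the 1.5-fold minimum (log2 difference -0.39 ± 0.12, adjusted p 0.0378 by edgeR). The fall of the Zap70 mean was largest in NKT17, from 789 ± 68.5 CPM in WT to 527 ± 64.3 CPM in SKG. Its libraries did not overlap there (716 to 852 CPM in WT and 453 to 565 CPM in SKG). Fcer1g encodes the FcRγ adaptor through which NKR-P1C signals. It was at 523, 272 and 404 CPM in WT NKT1 and 171, 199 and 212 CPM in SKG NKT1 (log2 difference -1.04 ± 0.31, adjusted p 0.0990 by edgeR), and at no more than 2.91 CPM in any NKT2 or NKT17 library. Thus Klrb1c transcript was at 34.1 to 43.3 CPM in WT NKT17 libraries where Fcer1g was at 0.137 to 0.586 CPM. Lck, the kinase that also couples to NKR-P1C, was at 1561 CPM or more in every library. Ptpn6, which encodes the phosphatase SHP-1 recruited by inhibitory receptors, was lower in SKG NKT17 (807 ± 86.6 to 517 ± 87.5 CPM, edgeR adjusted p 0.0175), and Hcst, the DAP10 adaptor gene, was higher (175 ± 39.7 to 277 ± 51.9 CPM, edgeR adjusted p 0.0197).

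Genes with patterns most like each member were ranked by Pearson r of log2 CPM over the 18 libraries, as a description. Nearest to Klrb1f were Stx11 (r 0.947), Pim2 (0.943) and Runx2 (0.940), and nearest to Klrb1c were Hip1r (0.970), Srgap3 (0.952) and B4galnt4 (0.946). Pim2, a survival kinase, was at 412 to 478 CPM in WT NKT1 and 151 to 190 CPM in SKG NKT1, and at 31.5 to 53.6 CPM in NKT2 cells of both genotypes. Klrb1a was nearest to Abhd4 (0.869), Ssr1 (0.808) and Slc22a15 (0.789), and Abhd4, a lipid hydrolase gene, was at 23.9 to 38.3 CPM in WT NKT2 and 1.93 to 2.86 CPM in SKG NKT2. Clec2d was nearest to Znrf2 (0.881), Degs1 (0.876) and Nprl2 (0.868), and Clec2i to Cyb561d1 (0.904), Ncald (0.890) and Dusp28 (0.882). Among the members, Klrb1c and Klrb1f had r 0.847 and Klrb1a and Klrb1c had r 0.373. These values share the 6 groups as their source of variation.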

How the data were processed

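The authors deposited whole-number counts of reads per gene symbol, with no normalisation. Per the study's methods, poly-A RNA was made into cDNA by a Smart-seq2 protocol and sequenced as 50-base single-end reads. TopHat aligned the reads to the mouse genome, low-complexity reads were removed, and htseq-count counted them in union mode. The submitters' processing notes list TopHat 1.4.1, Bowtie 1.0.0 and HTSeq 0.7.1 and name a different mouse build (mm10) from the methods (mm9). Annotation and strand setting are not given in the sources used here. The reads carry no molecular identifiers, so PCR copies count as reads.

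Another 2 columns of the count table match none of the listed samples and were not used. Counts of 18 libraries were filtered with filterByExpr by group (11118 of 15582 genes kept) and TMM-scaled (factors 0.928 to 1.07). edgeR 4.0.16 (R 4.3.3) fitted a robust quasi-likelihood model with a mean for each of 6 groups (residual degrees of freedom, 12; common biological coefficient of variation, 21.1%). Tests were two-sided over 12 comparisons, with Benjamini-Hochberg adjustment over all tested genes in each. The thresholds, adjusted p under 0.1 and 1.5-fold, are the study's. The script was tested on simulated data. The NKT17 marker list is not reported here. The members, the family, partner and marker lists, and the motifs were chosen with earlier results of these data known. Named genes are all members, the 3 genes nearest each tested member, and list genes with the highest levels; genes overlapping or enclosed by family genes on the opposite strand were added, and Zap70, Ncr1, Gzma, Eomes, Klra8, Clec2l, Gm15987, BC064078 and the marker genes given between genotypes were named after their values were seen.

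Sequence windows were matched exactly on the whole NCBIM37 genome, and with up to 2 mismatches within 150 kb on each side of the members. Gene models are GENCODE M1. Promoters were matched by symbol for all 6 members. The reference is not a BALB/c genome, and the effect of this on the levels of the members was not tested.

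Title tokens paired libraries by the correlation of their deviations from group means (every pair over 0.1) only between NKT17 and NKT2 in WT (0.219 to 0.351), where the block changed no call. Between SKG subsets some pairs fell under 0.1. There, same-token correlations (0.0514 to 0.214) still lay above those of other tokens (at most 0.0464), so some pairing may be present. The block changed no call between SKG subsets either. Alternatives were DESeq2 1.42.0, RLE and upper-quartile scaling, no filter, no fold minimum, an adjusted p under 0.05, a minimum mean of 50 counts, a fit of the compared libraries alone, the token as a replicate block, and each library left out.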

Additional observations from a re-analysis of the deposited data

Results flagged for a closer look

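The response of Klrb1f to the SKG mutation differed between subsets, by a test of the difference itself. Relative to WT, Klrb1f changed by -1.72 log2 units in NKT1, 0.93 in NKT2 and -0.22 in NKT17. The NKT2 effect minus the NKT1 effect was 2.65 (SE 0.41, edgeR adjusted p 0.000473), and the NKT17 effect minus the NKT1 effect was 1.495 (SE 0.36, edgeR adjusted p 0.0231). Over all alternatives these differences ranged from 2.31 to 2.93 and from 1.31 to 1.71, and the adjusted p from 4.18e-08 to 0.00380 and from 0.00216 to 0.0837. Every SKG NKT1 library (18.0 to 29.5 CPM) was below every WT NKT1 library (69.5 to 83.3 CPM), while WT and SKG libraries overlapped in NKT2 and in NKT17. No cause was tested.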

How the results depend on the processing

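Over the alternatives, 9 or fewer a result beside the left-out libraries, 178 of 184 values of called members kept their call, and 120 of 138 with a library left out. Calls present under every alternative run were those of Klrb1f and Klrb1c between NKT2 and the other subsets in both genotypes, Klrb1f between WT and SKG NKT1 and between SKG NKT1 and SKG NKT17, Klrb1a between WT and SKG NKT2, Clec2i between WT NKT1 and both other subsets, Clec2d between WT NKT1 and WT NKT2, and both differences of the SKG effect on Klrb1f.

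The number of members called between SKG and WT NKT17 went from 1 to 0 with the replicate block or at an adjusted p under 0.05, and to 2 with only the compared libraries. It went from 2 to 1 between NKT1 and NKT17 in WT with a mean of at least 50 counts, which removes Clec2i. In SKG, DESeq2 called 4 members between NKT1 and NKT2, Klrb1b among them, and 2 between NKT1 and NKT17, as did a fit of the compared libraries. DESeq2 called 1 for the SKG effect in NKT17 minus NKT2. With the replicate block, Klrb1f was lost between SKG and WT NKT2 (0.77, edgeR adjusted p 0.179) and Clec2d between SKG and WT NKT17 (0.81, edgeR adjusted p 0.133). The labels do not give what a token marks. Same-token correlations between the genotypes were -0.151 to 0.03 in NKT2 and 0.00738 to 0.09 in NKT17. The causes were not tested.

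With single libraries left out, the number called was 1 to 3 between SKG and WT NKT2, 0 to 1 in NKT17, 1 to 2 between NKT1 and NKT17 in WT and in SKG, 2 to 3 between NKT1 and NKT2 and between NKT17 and NKT2 in SKG, and for the SKG effect 1 to 2 (NKT2 minus NKT1), 1 to 2 (NKT17 minus NKT1) and 0 to 1 (NKT17 minus NKT2). Differences that changed sign were not called in any of these fits. On the log2 scale these were Klrb1a for NKT1 against NKT17 in WT (-0.34 to 0.011), in SKG (-0.88 to 0.092) and in the SKG effect of NKT17 minus NKT1 (-0.23 to 0.74), and Klrb1c in the last of these (-0.19 to 0.31) and for NKT1 against NKT17 in SKG (-0.13 to 0.37). For Clec2d they were SKG against WT in NKT1 (-0.36 to 0.21), NKT17 against NKT2 in WT (-0.17 to 0.47), NKT1 against NKT17 in SKG (-0.28 to 0.10) and the SKG effect of NKT17 minus NKT2 (-0.082 to 0.58). For Clec2i they were SKG against WT in NKT2 (-0.17 to 0.44), NKT17 against NKT2 in WT (-0.41 to 0.15) and in SKG (-0.19 to 0.42), and the SKG effect of NKT17 minus NKT2 (-0.10 to 0.50). Low counts limit Klrb1b everywhere and Klrb1a and Klrb1c in NKT2 cells, where SKG libraries held 0 to 9 counts.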
